A study of Homo sapiens with 30 samples.

Results

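The 41 genes described here encode the proteins of the replication fork: the GINS complex and its partners, the DNA polymerases alpha, delta and epsilon with primase, the sliding clamp and its loaders, the single-strand binding protein RPA, the enzymes that finish Okazaki fragments and remove RNA from DNA, the fork protection proteins and a chromatin assembly factor. They were taken as a list of gene symbols set by function; no measured value enters the list's rule, but the list was drawn up with earlier results of these data known. All 41 were found among the 60617 genes listed in the tables. RNA was sequenced from HCT116 and SW480, 2 established human colorectal cancer cell lines, after transfection of small interfering RNAs (siRNAs). The study asked how loss of BRD8, a bromodomain protein, or of TIP60, a histone acetyltransferase that shares a chromatin complex with BRD8, changes gene expression in such cells.

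In each line 1 group received a control siRNA (siControl), 2 groups an siRNA against BRD8 (siBRD8-6 or siBRD8-36) and 2 groups an siRNA against TIP60 (siTIP60-2 or siTIP60-11), whose gene is listed as KAT5. There were 3 libraries in each of the 10 groups, 30 in all. All groups, controls included, were exposed to 10 nM siRNA with the lipid reagent Lipofectamine RNAiMAX, and RNA was taken 48 h later, so every comparison is between transfected cells at 1 time point. Each line stands for 1 tumour grown as a culture, with no stroma and no immune cells. The labels do not say whether the 3 libraries of a group came from separate cultures, so p-values measure the spread between these libraries, which may be technical.

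At a fork, the helicase formed by the MCM ring, CDC45 and GINS unwinds DNA, primase and polymerase alpha lay down short primers, and polymerases epsilon and delta extend the leading and the lagging strand. PCNA, the clamp loaded by the RFC complex, holds the polymerases on DNA, RPA covers single strands, FEN1, DNA2 and LIG1 process and join the lagging strand, and TIMELESS, TIPIN and CLSPN keep stalled forks stable. Many of these genes are transcribed most in late G1 and S phase, under E2F transcription factors.

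Promoter sequences are shown first because they are a property of the genes that the list did not use. Of the 41 genes, 35 matched the RefSeq promoter table (GRCh38.p14), with 45 promoters of 300 bases each, 250 before and 50 after the listed start. The 3 motifs searched on both strands were an E2F core (TTCCCGC or TTGGCGC), the CCAAT box and the CHR element (TTTGAA) known from genes of G2 and mitosis. The 5 promoters below belong to GINS2, RFC4 and PRIM1, which were lower after BRD8 depletion in both lines and hold an E2F core, to POLA2, which was lower in both lines and holds none of the motifs, and to RPA1, which was called in neither line and holds an E2F core and 2 CCAAT boxes. Capitals mark the motifs on either strand, and in PRIM1 the E2F core and the CCAAT box overlap. Only exact matches were counted, so near matches, as POLA2 holds to TTGGCGC, are not marked.
GINS2 (chr16:85688905-85689204, minus strand): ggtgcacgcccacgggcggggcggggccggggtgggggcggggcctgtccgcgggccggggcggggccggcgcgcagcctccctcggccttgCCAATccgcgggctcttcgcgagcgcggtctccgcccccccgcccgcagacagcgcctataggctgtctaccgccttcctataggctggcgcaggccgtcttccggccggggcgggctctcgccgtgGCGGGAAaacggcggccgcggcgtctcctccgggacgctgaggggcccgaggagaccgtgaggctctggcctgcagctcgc
RFC4 (chr3:186806433-186806732, minus strand): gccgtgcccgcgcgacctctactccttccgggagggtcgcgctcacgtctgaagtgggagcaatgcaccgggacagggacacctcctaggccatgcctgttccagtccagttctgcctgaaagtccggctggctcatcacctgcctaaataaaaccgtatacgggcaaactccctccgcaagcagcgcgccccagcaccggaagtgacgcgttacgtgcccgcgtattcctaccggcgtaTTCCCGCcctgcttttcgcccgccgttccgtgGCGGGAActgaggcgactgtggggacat
PRIM1 (chr12:56752274-56752573, minus strand): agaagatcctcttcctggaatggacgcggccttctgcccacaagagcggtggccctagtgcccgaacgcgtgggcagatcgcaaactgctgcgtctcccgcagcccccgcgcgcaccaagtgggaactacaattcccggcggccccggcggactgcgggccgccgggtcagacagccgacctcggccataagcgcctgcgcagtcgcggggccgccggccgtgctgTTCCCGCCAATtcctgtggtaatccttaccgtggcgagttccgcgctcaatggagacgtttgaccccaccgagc
POLA2 (chr11:65261712-65262011, plus strand): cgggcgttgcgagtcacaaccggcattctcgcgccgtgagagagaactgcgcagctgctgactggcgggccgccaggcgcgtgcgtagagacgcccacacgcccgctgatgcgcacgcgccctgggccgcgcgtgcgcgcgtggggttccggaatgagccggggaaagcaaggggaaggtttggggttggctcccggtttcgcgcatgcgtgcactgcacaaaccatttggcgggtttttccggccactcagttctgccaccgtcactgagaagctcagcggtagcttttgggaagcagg
RPA1 (chr17:1829755-1830054, plus strand): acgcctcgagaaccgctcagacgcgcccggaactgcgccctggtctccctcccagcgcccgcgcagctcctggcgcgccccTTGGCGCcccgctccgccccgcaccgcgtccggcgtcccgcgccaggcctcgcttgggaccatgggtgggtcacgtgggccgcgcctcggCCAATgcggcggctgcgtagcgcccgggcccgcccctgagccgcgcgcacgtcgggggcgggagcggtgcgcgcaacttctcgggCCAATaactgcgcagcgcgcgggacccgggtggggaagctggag

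An E2F core was present in 21 of the 45 promoters of the fork genes (46.7%), against 9.23% of all 35116 promoters of the table. A CCAAT box was present in 55.6% of the fork gene promoters and in 34.6% of all promoters. The CHR element was present in 1 promoter, that of POLE3, or 2.22%, against 15.2% of all promoters. Among the genes lower after BRD8 depletion in both lines, 9 of the 16 with a promoter in the table held an E2F core (56.2%), and 4 of the 8 with a promoter did so among the genes called in neither line (50%). A match describes letters in a window of 300 bases and is neither a site nor a cause.

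Values below are read counts scaled to library size by TMM (CPM) unless TPM, which correct for transcript length, are named. Libraries held 13.42 to 18.6 M counts in HCT116 and 7.07 to 11.7 M in SW480, and the 3 SW480 controls, at 7.07, 7.58 and 7.69 M, were the shallowest of all. Counts of a fork gene in a library ran from 26 for POLE2 upward. Among the HCT116 controls, replicate 2 had the fewest counts and was the lowest of the 3 for 23 of the 41 genes, against 4 for replicate 1 and 14 for replicate 3. Replicate 2 was the highest of the 3 for 12 genes, against 12 for replicate 1 and 17 for replicate 3. It also stood apart from the others across all genes: the chi-square per gene was 15.9 and 21.3 between it and replicates 1 and 3, against 1.47 to 9.56 for all other replicate pairs. Without it, BRD8 depletion lowered 27 fork genes in HCT116 and TIP60 depletion lowered 3 and raised 3. Of 12 colorectal epithelial markers, 6 reached 1 TPM in the controls of each line, EPCAM and 3 keratins among them, while CDX1 and CEACAM5 were listed at 0. The targeted genes followed the labels: BRD8 was at 45.9, 37.6 and 42.5 CPM in HCT116 controls and at 8.39, 9.41 and 9.07 with siBRD8-6 and 5.78, 6.03 and 7.06 with siBRD8-36, and its mean fell by 2.54 in HCT116 and by 2.13 in SW480 on the log2 scale. KAT5 fell by 3.55 and 3.26 with the TIP60 siRNAs.

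The marker sums also moved with the groups. The summed TPM of the epithelial markers was 3560 to 3580 in HCT116 controls and 5780 to 6990 with the BRD8 siRNAs, 3060 to 3200 in SW480 controls and 4690 to 5290 with the BRD8 siRNAs, and 5900 to 6200 (HCT116) and 3570 to 3940 (SW480) with the TIP60 siRNAs. The 7 fibroblast markers, of which COL1A1 alone reached 1 TPM in controls, summed to 7.28 to 11.7 TPM in HCT116 controls. With siBRD8-6 and siBRD8-36 they summed there to 14.6 to 17.1 and 28.2 to 29.7. In SW480 they summed to 3.3 to 4.09 in controls, 6.64 to 10.2 with siBRD8-6 and 2.57 to 3.41 with siBRD8-36. With the TIP60 siRNAs the fibroblast sums were 11.1 to 16.9 in HCT116 and 2.97 to 4.78 in SW480. The 7 leukocyte markers summed to 6.68 to 9.99 TPM in HCT116 controls, where CD68 alone had a mean of 7.29 TPM. There they summed to 3.4 to 4.62 with siBRD8-6, 7.82 to 11.7 with siBRD8-36, 22.8 to 28.6 with siTIP60-2 and 7.12 to 8.79 with siTIP60-11. In SW480 the sums were 0.57 to 1.72 in controls, 1.78 to 2.46 with siBRD8-6 and 5.54 to 6.99 with siBRD8-36. With siTIP60-2 they were 1.25 to 5.67 and with siTIP60-11 2.82 to 3.56. PTPRC was listed at 0 in the controls of both lines. The part of these shifts in the fork genes' changes was not tested. Together the 41 fork genes took 0.258 to 0.27% of all counts in HCT116 controls, 0.209 to 0.217% with siBRD8-6, 0.153 to 0.158% with siBRD8-36, 0.275 to 0.281% with siTIP60-2 and 0.246 to 0.255% with siTIP60-11. In SW480 the shares were 0.229 to 0.233%, 0.175 to 0.185%, 0.164 to 0.175%, 0.277 to 0.288% and 0.225 to 0.227% in the same order.

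In control cells PCNA had the highest level of the 41 genes in both lines, at 287 ± 19 TPM in HCT116 and 281 ± 12.4 TPM in SW480 (SD, n = 3). RPA1, at 186 ± 26.1 TPM, and POLD2, a polymerase delta subunit at 167 ± 4.97 TPM, followed in HCT116 and overlapped each other. RPA3, at 177 ± 7.97 TPM, and POLD2, at 174 ± 10.7 TPM, followed in SW480 and overlapped as well. The lowest were DNA2 at 11.8 ± 2.64 TPM in HCT116 and CLSPN at 2.52 ± 0.362 TPM in SW480. Most neighbours in this order overlapped between libraries, as the plot of control levels shows. Subunits of 1 complex did not all share a level: in HCT116 the GINS subunits GINS1, GINS2, GINS3 and GINS4 were at 20.4 ± 3.32, 51.7 ± 4.68, 12.8 ± 0.421 and 23.2 ± 3.32 TPM. The libraries of GINS1 and GINS4 overlapped.

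**Figure D1:**
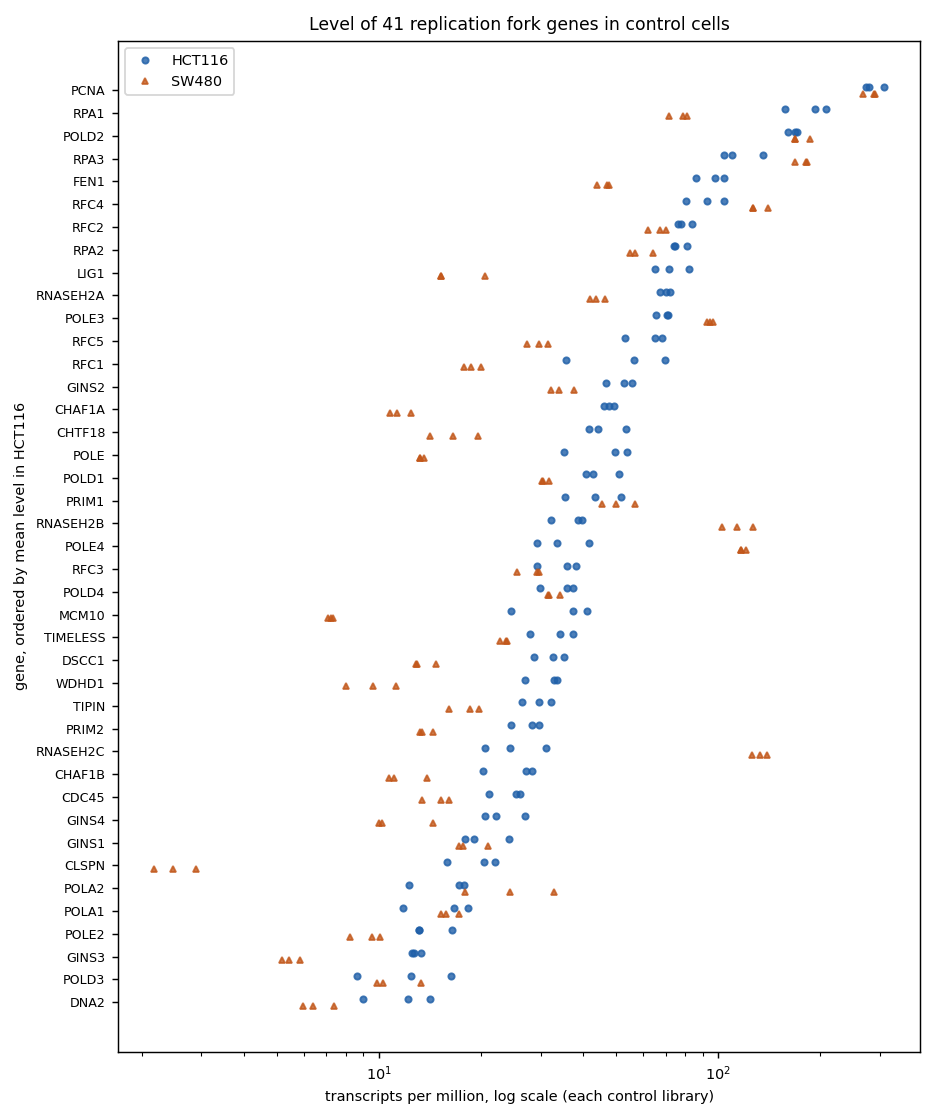
TPM of the 41 fork genes in each control library on a log scale, ordered by the HCT116 mean (circles, HCT116, n = 3; triangles, SW480, n = 3). PCNA is highest in both lines, while CLSPN lies at 19.4 TPM in HCT116 and at 2.52 TPM in SW480.

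Between the control cells of the lines, 25 fork genes were higher in HCT116 and 12 lower (edgeR's quasi-likelihood test, Benjamini-Hochberg adjusted p under 0.05), against 41.5% and 37.0% of the 17411 genes tested. CLSPN, the adaptor that activates the checkpoint kinase CHEK1, was at 62.5, 57.9 and 60.6 CPM in HCT116 and at 10.8, 11.1 and 9.75 CPM in SW480, a log2 difference of 2.56 (SE 0.111, adjusted p = 1.42e-20). LIG1, the ligase of the lagging strand, and MCM10, which activates the helicase, were higher in HCT116 by 1.91 and 1.82 on the log2 scale. The opposite held for RNASEH2C, a subunit of the enzyme that removes ribonucleotides from DNA, at 14.3, 18.8 and 13.2 CPM in HCT116 and 80.3, 92.8 and 83.6 in SW480 (-2.44, SE 0.106, adjusted p = 4.39e-20). POLE4, a small polymerase epsilon subunit, and RNASEH2B were lower in HCT116 as well (-2.04 and -1.80). None of these 6 genes overlapped between the controls of the lines. On log2(TPM + 1) values in limma the genes lower in HCT116 numbered 7, with the median of all genes moved from 0.08 to 0.25.

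Depletion of BRD8 lowered fork genes of every role in HCT116. Calls required the same sign with both siRNAs and a Benjamini-Hochberg adjusted p under 0.05, over all genes, for the weaker siRNA; each adjusted p given for a depletion is that value from edgeR's quasi-likelihood test. In HCT116, 25 of 41 fork genes were lower (61.0%) and 0 higher, against 12.2% lower and 12.2% higher among the 15919 genes tested. The mean change of both siRNAs was negative for all 41 genes, with a median of -0.70 on the log2 scale against -0.02 over all genes. At an unadjusted p of 0.05, 28 were lower and 0 higher, and DESeq2 called 24 lower and 0 higher. On log2(TPM + 1) values, limma called 16 lower and 0 higher. In bulk RNA, fewer cells in S phase and less of these RNAs per cell cannot be told apart.

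In SW480, 26 of 41 fork genes were lower (63.4%) and 0 higher, against 14% and 12.9% of the 15277 genes tested. The median change was -0.63, against 0.00 over all genes, and 39 of the 41 changes were negative. At an unadjusted p of 0.05, 28 were lower and 0 higher, and DESeq2 called 24 and 0. TPM moved the whole SW480 comparison upward: on log2(TPM + 1) the median of all genes was 0.23 and that of the fork genes -0.29, and limma called 12 lower and 1 higher. Relative to all genes the fork genes were lower on both scales. Without a model, all 6 depleted libraries lay below all 3 controls for 23 fork genes in HCT116 and 27 in SW480, where 12.2% and 16.6% of all genes did so. None lay above, against 17.4% and 18.5% of all genes.

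The same 19 genes were called lower in both lines: CDC45, GINS1, GINS2, GINS4 and MCM10, POLA1, POLA2 and PRIM1, POLE2, RFC2, RFC3, RFC4, CHTF18 and DSCC1, RPA3, RNASEH2A, RNASEH2B and RNASEH2C, and TIPIN. The 9 genes called in neither line were CLSPN, FEN1, POLD2, POLD3, POLD4, POLE4, RFC1, RPA1 and TIMELESS. The changes with each siRNA are shown for all 41 genes in the heat map.

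**Figure D2:**
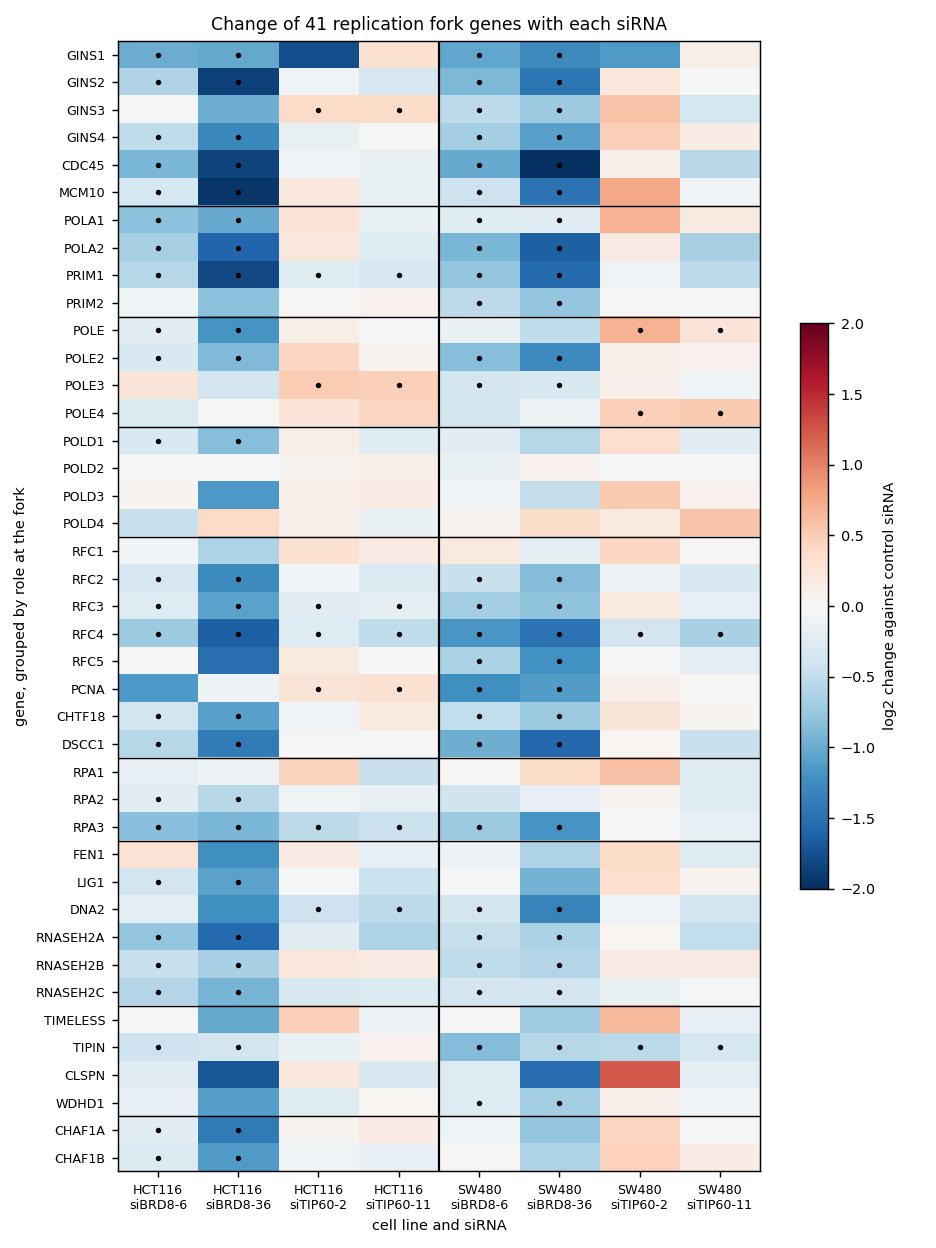
Log2 change of each of the 41 fork genes (rows, grouped by role) against control siRNA for each of 4 siRNAs in each line (columns, each the mean of 3 libraries against 3); colour runs from -2 to 2 and a dot marks a gene called for that target and line. The BRD8 columns are mostly blue, with dots on 25 genes in HCT116 and 26 in SW480, while the TIP60 columns carry dots on 8 and 4 genes.

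Among the helicase cofactors, 5 of 6 genes fell in HCT116 and 6 of 6 in SW480, with median changes of -1.08 and -1.06. CDC45, the helicase subunit that joins MCM and GINS, was at 28.1, 22.7 and 27.6 CPM in HCT116 controls, at 14.8, 14.7 and 13.5 with siBRD8-6 and at 7.83, 7.14 and 8.04 with siBRD8-36. It fell by 1.38 on the log2 scale (SE 0.0659, adjusted p = 3.93e-08), and the 3 groups did not overlap. In SW480 CDC45 was at 17.4, 20.6 and 21.5 CPM in controls, 8.03, 10.9 and 10.9 with siBRD8-6 and 4.69, 5.24 and 5.31 with siBRD8-36, and it fell by 1.5 (SE 0.111, adjusted p = 3.3e-07). It was the largest mean fall among the 41 genes in either line. GINS1, a subunit of the 4-part GINS complex, was at 46, 46.1 and 35.9 CPM in HCT116 controls, 21.9, 22.5 and 21.5 with siBRD8-6 and 21.8, 23 and 21.8 with siBRD8-36. Both siRNAs left it at a like share of the control mean, 51.3% and 52%, with every depleted library below every control. In SW480 GINS1 was at 46.9, 45 and 45.5 CPM in controls, 23.3, 23.9 and 21 with siBRD8-6 and 20.1, 21.8 and 15.9 with siBRD8-36, and it fell by 1.01 and 1.16 in the 2 lines. GINS2 went from 63.9, 64.4 and 60.9 CPM in HCT116 controls to 43.5, 43.3 and 41.2 with siBRD8-6 and 18, 19.7 and 17.6 with siBRD8-36 and fell by 1.23 in that line and by 1.17 in SW480. MCM10 fell by 1.15 and 0.95, and its call in SW480 ended without control replicate 3. GINS3 was called in SW480 only (-0.63, adjusted p = 0.0055), where all its libraries were below the controls.

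Polymerase alpha and primase start each DNA strand. Of these 4 genes, 3 fell in HCT116 and all 4 in SW480. PRIM1, the catalytic primase subunit, was at 39.6, 38.1 and 45.8 CPM in HCT116 controls, 29.2, 28.9 and 27.3 with siBRD8-6 and 12.1, 12.3 and 13.2 with siBRD8-36, a fall of 1.18 (SE 0.061, adjusted p = 3.65e-06). In SW480 it fell by 1.16, from 59.2, 57 and 59.8 CPM in controls to 37.9, 36.8 and 30.6 with siBRD8-6 and 20.2, 20.9 and 20.7 with siBRD8-36. The groups were separate in both lines. POLA2, the regulatory subunit of polymerase alpha, varied more between libraries: in SW480 it was at 25.9, 25.6 and 29.7 CPM in controls, 12.4, 19.8 and 11.9 with siBRD8-6 and 9.09, 9.17 and 8.26 with siBRD8-36, and it fell by 1.28 (SE 0.128, adjusted p = 3.88e-05). In HCT116 POLA2 fell by 1.13, a call that ended without control replicate 1 or siBRD8-6 replicate 1. POLA1, the catalytic subunit, was at 55.2, 41.7 and 61.8 CPM in HCT116 controls, 31.6, 30.5 and 30.3 with siBRD8-6 and 29.2, 28.6 and 25.6 with siBRD8-36. In SW480 the same gene was at 72.2, 66.6 and 69.1 CPM in controls, 59.7, 62 and 58.1 with siBRD8-6 and 53.4, 61.4 and 66 with siBRD8-36, much closer to its controls. It fell by 0.92 in HCT116 and by 0.24 in SW480. The SW480 call ended without control replicate 1, siBRD8-6 replicate 3 or siBRD8-36 replicate 1. PRIM1, POLA2, PRIM2, RNASEH2A and POLD4 had expected counts that were not whole in nearly all libraries, so reads that also matched other genes were divided by estimate.

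The extending polymerases changed less. Of the 4 polymerase epsilon genes, 2 fell in each line: POLE and POLE2 in HCT116, POLE2 and POLE3 in SW480. The POLE2 call in HCT116 ended in DESeq2, without the filter on low counts, on TPM, and without control replicate 1 or siBRD8-6 replicate 1. POLE, the catalytic subunit, was at 137, 107 and 144 CPM in HCT116 controls, 114, 111 and 115 with siBRD8-6 and 64.5, 57 and 59.3 with siBRD8-36. With siBRD8-6 it lay within the range of the controls, and the call (adjusted p = 0.0282) ended in most fits that left out a control or a siBRD8-6 library. POLE2, the second subunit, was at 9.03, 8.4 and 9.04 CPM in SW480 controls, 5.43, 4.47 and 5.06 with siBRD8-6 and 3.73, 4.91 and 2.56 with siBRD8-36, a fall of 1.06 (SE 0.161, adjusted p = 0.000703) with no overlap. Of the 4 polymerase delta genes only POLD1, the catalytic subunit, was called, and only in HCT116, where it was at 66.6, 66.1 and 68.9 CPM in controls, 55.3, 54.6 and 57 with siBRD8-6 and 37, 35.9 and 45.1 with siBRD8-36. It fell by 0.58 (SE 0.0525, adjusted p = 0.000691); in SW480 its change was -0.40 with an adjusted p of 0.0583. POLD2, the most abundant subunit, stayed between 151 and 174 CPM in all 9 HCT116 control and BRD8 libraries.

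Of the 8 genes of the clamp and its loaders, 5 fell in HCT116 and 7 in SW480. RFC4, a subunit of the clamp loader, was at 70, 69 and 60.6 CPM in HCT116 controls, 37.8, 45.3 and 40.6 with siBRD8-6 and 19.6, 25.9 and 22.9 with siBRD8-36, a fall of 1.18 (SE 0.0783, adjusted p = 6.15e-06). SW480 levels of RFC4 were 118, 121 and 120 CPM in controls, 53.7, 55.9 and 53.9 with siBRD8-6 and 48.6, 44.4 and 39 with siBRD8-36, and RFC4 fell by 1.32 (SE 0.0577, adjusted p = 3.97e-13), the largest fall there by the weaker of both siRNAs. Neither line showed overlap between control and depleted libraries. RFC1, the large subunit, was not called in either line. DSCC1 and CHTF18 belong to a second loader that serves cohesion of sister chromatids, and both fell in both lines. DSCC1 was at 26.2, 24.5 and 23.5 CPM in SW480 controls, 11.7, 13.5 and 13.3 with siBRD8-6 and 6.98, 9.38 and 9.24 with siBRD8-36, a fall of 1.27 (SE 0.11).

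PCNA itself behaved differently in the 2 lines. In SW480 it was at 299, 288 and 296 CPM in controls, 130, 140 and 116 with siBRD8-6 and 145, 147 and 125 with siBRD8-36, a fall of 1.17 (SE 0.0551, adjusted p = 4.42e-13). In HCT116 it was at 248, 246 and 223 CPM in controls and at 108, 118 and 105 with siBRD8-6, but at 229, 239 and 238 with siBRD8-36. The siBRD8-36 libraries lay within the control range, so PCNA was not called in HCT116 (adjusted p = 0.209).

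RPA3, the smallest RPA subunit, fell in both lines, while RPA1, the largest, was called in neither. RPA3 was at 40.5, 54.7 and 35.9 CPM in HCT116 controls, 23.4, 24.9 and 26.4 with siBRD8-6 and 21.6, 25.9 and 25.8 with siBRD8-36, a fall of 0.88 (SE 0.115, adjusted p = 0.00023). In SW480 it was at 91.8, 88 and 90.1 CPM in controls, 56.8, 55.8 and 53.5 with siBRD8-6 and 43.3, 46.6 and 31.7 with siBRD8-36 and fell by 0.96 (SE 0.0747). The control libraries of HCT116 were spread widely but stayed above all depleted ones. RPA2, the middle subunit, fell by 0.39 in HCT116 only.

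All 3 subunits of RNase H2 fell in both lines. RNASEH2A, the catalytic subunit, was at 39.7, 43.9 and 40.4 CPM in HCT116 controls, 26.3, 23.7 and 24.3 with siBRD8-6 and 15, 14.4 and 14.9 with siBRD8-36, a fall of 1.16 (SE 0.0822, adjusted p = 4.19e-06). In SW480 RNASEH2A was at 30.4, 34.4 and 30 CPM in controls, 20.2, 23.3 and 26.4 with siBRD8-6 and 24.9, 22 and 15.2 with siBRD8-36, a fall of 0.55, and this call ended without control replicate 2, siBRD8-6 replicate 1 or siBRD8-6 replicate 2. RNASEH2B fell by 0.55 and 0.55 in HCT116 and SW480, and RNASEH2C by 0.76 and 0.37. The nuclease DNA2 was called in SW480 only, at 12.1, 12.3 and 12.9 CPM in controls, 11.4, 9.26 and 8.87 with siBRD8-6 and 5.17, 3.93 and 5.9 with siBRD8-36, with an adjusted p of 0.0482 that passed 0.05 on leaving out any of the 3 controls, siBRD8-6 replicate 2 or 3, or siBRD8-36 replicate 1. LIG1 fell in HCT116 only (-0.73, SE 0.0462). FEN1, the flap nuclease, moved in opposite directions with the 2 siRNAs in HCT116, as given below.

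Of the fork protection genes, TIPIN fell in both lines, by 0.39 and 0.72. CLSPN had the largest mean change of this role but was called in neither line (adjusted p = 0.0761 in HCT116 and 0.213 in SW480). In HCT116 it was at 62.5, 57.9 and 60.6 CPM in controls, 52.9, 58.3 and 49.6 with siBRD8-6 and 19.1, 22.3 and 17.6 with siBRD8-36. In SW480 it was at 10.8, 11.1 and 9.75 CPM in controls, 8.38, 9.59 and 8.87 with siBRD8-6 and 3.44, 3.38 and 4.42 with siBRD8-36. In both lines every siBRD8-36 library lay below every control and every siBRD8-6 library. WDHD1, which links polymerase alpha to the helicase, was called in SW480 (-0.48, adjusted p = 0.0247), a call that ended without any 1 of the 3 controls or without siBRD8-6 replicate 1 or 3.

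CHAF1A and CHAF1B, the large subunits of the chromatin assembly factor that places histones behind the fork, fell in HCT116 and were not called in SW480. CHAF1A was at 89.6, 85.7 and 86.6 CPM in HCT116 controls, 77.2, 82.5 and 72 with siBRD8-6 and 30.4, 39.3 and 34.2 with siBRD8-36, a fall of 0.81 (SE 0.0645, adjusted p = 0.0436). This call rested on small changes with siBRD8-6 and ended without any 1 control library, siBRD8-6 replicate 1 or 3, or siBRD8-36 replicate 3. In SW480 CHAF1A was at 26.7, 26.8 and 27.5 CPM in controls, 23.1, 28.5 and 25.8 with siBRD8-6 and 15.1, 17.1 and 15.7 with siBRD8-36. Every siBRD8-36 library was below every control, while the siBRD8-6 libraries lay on both sides of the controls. CHAF1B fell by 0.71 in HCT116.

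**Figure D3:**
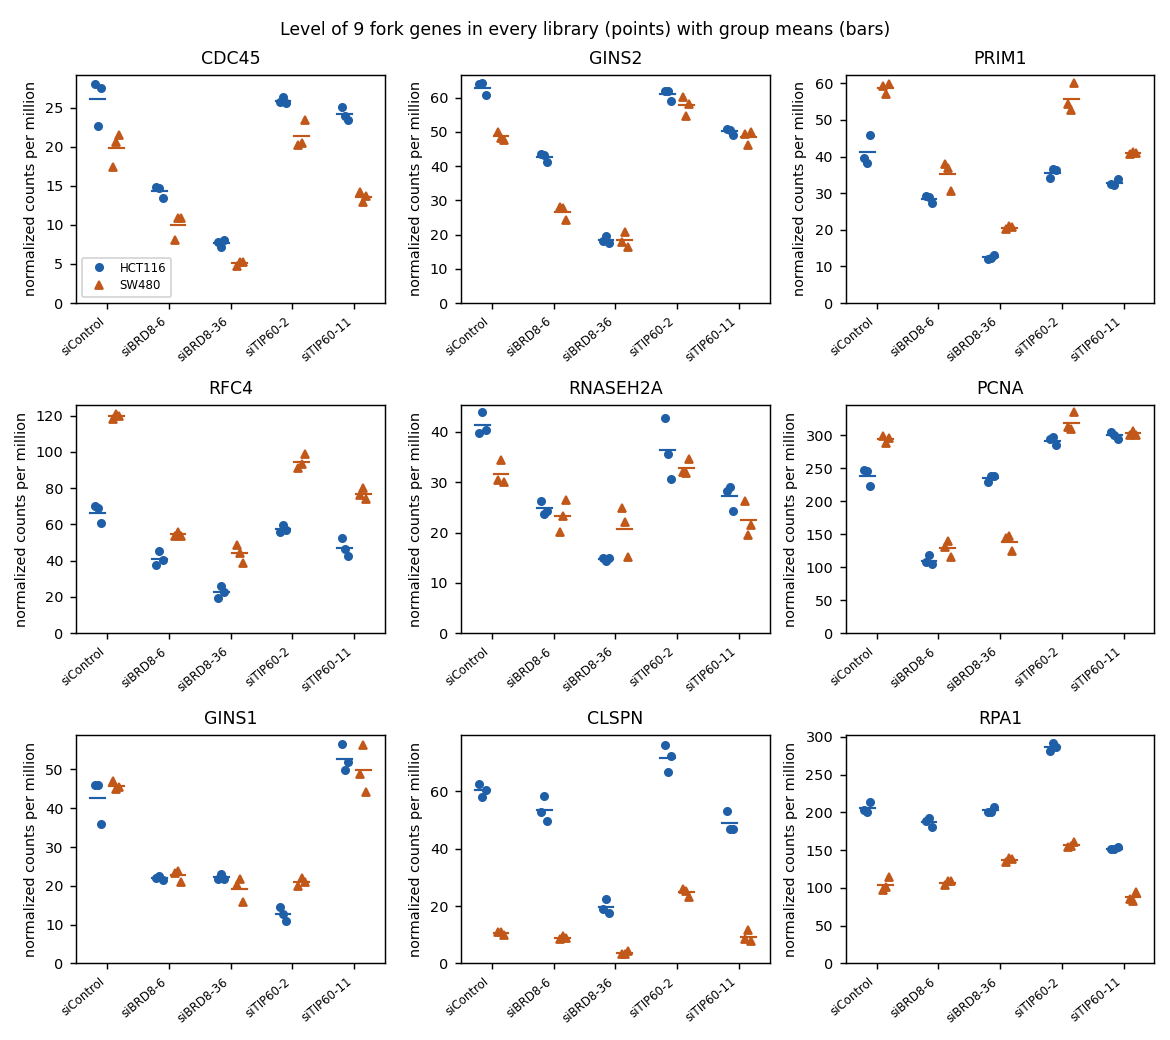
Scaled read counts (CPM) of 9 fork genes in every library by siRNA (circles, HCT116; triangles, SW480; bars, means of 3 libraries). CDC45, GINS2, PRIM1 and RFC4 are lower with both BRD8 siRNAs in both lines, PCNA in HCT116 only with siBRD8-6, GINS1 also with siTIP60-2, and all 3 CLSPN libraries with siTIP60-2 are above the controls in SW480.

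The 2 BRD8 siRNAs differed in which fork genes they changed and by how much. Against control, siBRD8-6 alone lowered 29 fork genes in each line, where it lowered 25.7% of all genes in HCT116 and 26.3% in SW480. siBRD8-36 alone lowered 36 in each line, against 29.4% and 28.5% of all genes, and the median changes with siBRD8-6 and siBRD8-36 were -0.31 and -1.07 in HCT116 and -0.42 and -0.75 in SW480. Compared directly, 32 genes were higher with siBRD8-6 in HCT116 and 2 lower, PCNA and POLD4, against 28.3% and 28.4% of all genes. In SW480, 24 were higher and 3 lower (RPA1, RPA2 and POLD2), against 27.0% and 25.9%. BRD8 itself was at 21.3% of control with siBRD8-6 and 15% with siBRD8-36 in HCT116. The shares in SW480 were 25% and 21.6%. The difference in BRD8 between the siRNAs passed edgeR's test in HCT116 (adjusted p = 0.000376) and not in SW480 (adjusted p = 0.107). Its part in the differences of the fork genes was not tested.

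The differences were largest for MCM10, RFC5 and FEN1 in HCT116. MCM10 was at 61.8, 49 and 62.2 CPM in controls, 46.1, 50.3 and 42.7 with siBRD8-6 and 16.8, 14.6 and 15.8 with siBRD8-36, a difference between the siRNAs of 1.60 (SE 0.0883). RFC5, a clamp loader subunit, was at 82.9, 75.9 and 83.4 CPM in controls, 82.6, 86.5 and 84.2 with siBRD8-6 and 28.5, 30.4 and 30.7 with siBRD8-36, and with siBRD8-6 it overlapped the controls. FEN1 was at 120, 130 and 110 CPM in controls, 147, 160 and 142 with siBRD8-6 and 51, 59 and 52.5 with siBRD8-36, above its controls with siBRD8-6 (log2 change 0.29, adjusted p = 0.00242 in edgeR's test of that siRNA alone) and below them with siBRD8-36 (-1.22). PCNA went the other way by -1.05 (SE 0.0551), and POLD4, a small polymerase delta subunit at 18.8, 21.7 and 15.6 CPM in controls, was at 11.4, 14.3 and 16.3 with siBRD8-6 and 23.2, 27.3 and 27.6 with siBRD8-36. In SW480 the largest differences were those of CLSPN (1.25), MCM10 (1.06) and CDC45 (0.99), and RPA1 was the reverse, at 97.2, 101 and 115 CPM in controls, 104, 109 and 109 with siBRD8-6 and 134, 139 and 138 with siBRD8-36. The genes lower with siBRD8-6 in SW480 numbered 7 without siBRD8-36 replicate 3.

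Few fork genes moved in 1 direction with both TIP60 siRNAs. In HCT116, 5 were lower and 3 higher, against 14.1% and 13.7% of all genes, and in SW480 2 were lower and 2 higher, against 12.1% and 11.5%. The median changes were -0.02 and 0.06, against -0.03 and 0.01 over all genes. All 6 depleted libraries lay below the 3 controls for 4 fork genes in HCT116 and 2 in SW480, where 14.9% and 17.2% of all genes did so, and above them for 7 and 5, against 17.8% and 17.3%. Each of these shares was below that of all genes. More genes were called with 1 siRNA: in HCT116 siTIP60-2 alone had 8 lower and 12 higher, against 25.4% and 24.3% of all genes, and siTIP60-11 alone 14 and 6, against 27.7% and 25.9%. In SW480 siTIP60-2 alone had 3 lower and 19 higher, against 24.4% and 25.1%, and siTIP60-11 alone 15 and 5, against 24.2% and 23.4%. The genes lower in HCT116 numbered 2 without siTIP60-11 replicate 2 and 3 without control replicate 2 or siTIP60-2 replicate 1. In SW480 1 gene was lower without any 1 of 7 libraries and 1 was higher without control replicate 1 or 3 or siTIP60-11 replicate 1 or 3.

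The 3 genes that rose in HCT116 were POLE3, GINS3 and PCNA. POLE3, a histone-fold subunit of polymerase epsilon that also serves chromatin remodelling, was at 93.4, 94.7 and 91.9 CPM in controls, 135, 142 and 134 with siTIP60-2 and 135, 133 and 125 with siTIP60-11, a rise of 0.49 (SE 0.0396, adjusted p = 1.4e-07). PCNA was at 248, 246 and 223 CPM in controls, 294, 297 and 286 with siTIP60-2 and 305, 300 and 295 with siTIP60-11, a rise of 0.28 (SE 0.0468, adjusted p = 0.00143). Every depleted library of both genes lay above every control. GINS3 rose by 0.37, from 17.3, 19.8 and 18.2 CPM in controls to 23.7, 25.2 and 25.4 with siTIP60-2 and 24.3, 24.2 and 22.9 with siTIP60-11, a call (adjusted p = 0.0295) that ended in 7 of the 9 fits that left out 1 of its libraries.

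The 5 genes that fell in HCT116 were RPA3 (-0.48), DNA2 (-0.47), RFC4 (-0.38), PRIM1 (-0.29) and RFC3 (-0.20). RPA3 was at 40.5, 54.7 and 35.9 CPM in controls, 28, 34 and 31.6 with siTIP60-2 and 35.7, 32.2 and 30 with siTIP60-11, and the call ended without control replicate 2, siTIP60-11 replicate 2 or siTIP60-11 replicate 3. DNA2 was at 19.9, 15.2 and 20.3 CPM in controls, 15.6, 12.3 and 15.2 with siTIP60-2 and 13.1, 13.8 and 12 with siTIP60-11 (SE 0.0911, adjusted p = 0.00593), and siTIP60-2 overlapped the lowest control. That call alone among the 5 held in every fit of the counts, and it ended on TPM. RFC4 was at 55.6, 59.9 and 56.8 CPM with siTIP60-2 and 52.4, 46.5 and 42.6 with siTIP60-11, all below its controls given above. PRIM1 was at 34.1, 36.5 and 36.2 CPM with siTIP60-2 and 32.4, 32.1 and 34 with siTIP60-11, also below its controls. RFC3, a clamp loader subunit, was at 50.2, 46.7 and 52.8 CPM in controls, 41.3, 46 and 46 with siTIP60-2 and 43, 44.3 and 44.5 with siTIP60-11. RFC4, PRIM1 and RFC3 each lost their calls on TPM and on leaving out 2 or more of the libraries, among them control replicate 1 for RFC4 and control replicate 3 for PRIM1 and RFC3.

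In SW480 RFC4 and TIPIN fell and POLE4 and POLE rose. RFC4 was at 118, 121 and 120 CPM in controls, 91.2, 93.3 and 98.7 with siTIP60-2 and 76.4, 79.9 and 73.8 with siTIP60-11, a fall of 0.50 (SE 0.0564, adjusted p = 0.000145), and no depleted library reached a control. POLE4 was at 45.4, 48.7 and 44.8 CPM in controls, 62, 60.6 and 71.9 with siTIP60-2 and 67.1, 65.1 and 68.3 with siTIP60-11 and rose by 0.50 (SE 0.105, adjusted p = 0.00623), again with no overlap. POLE was at 36.8, 42.4 and 39.4 CPM in controls, 67.6, 62.9 and 62.4 with siTIP60-2 and 48.1, 46.1 and 48.8 with siTIP60-11 and rose by 0.48, a call (adjusted p = 0.0297) that ended without control replicate 1 or 3 or siTIP60-11 replicate 1 or 3. TIPIN was at 16.9, 19.2 and 16.2 CPM in controls, 12.8, 9.51 and 13.8 with siTIP60-2 and 13.9, 14 and 13.5 with siTIP60-11, and its call (adjusted p = 0.0476) ended without any 1 control, siTIP60-2 replicate 1 or any 1 siTIP60-11 library. RFC4 was the only fork gene called lower for both targets in both lines. RNASEH2C overlaps KAT5 on the opposite strand; it was not called with the TIP60 siRNAs in either line, at 83.1% of control with siTIP60-2 in HCT116 and 91.4% in SW480.

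The 2 TIP60 siRNAs also differed from each other. KAT5 was lower with siTIP60-2 than with siTIP60-11 (log2 difference -0.43 in HCT116 and -0.77 in SW480). In HCT116, 15 genes were higher with siTIP60-2 than with siTIP60-11 and 4 lower (GINS1, WDHD1, CHTF18 and TIPIN), against 23.5% and 22.5% of all genes; without siTIP60-2 replicate 2 the lower genes numbered 2. In SW480, 26 were higher and 2 lower (GINS1 and POLD4), against 23.4% and 21.9%, and 1 was lower without siTIP60-2 replicate 1 or 3 or siTIP60-11 replicate 1 or 3.

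GINS1 gave the largest difference. It was at 46, 46.1 and 35.9 CPM in HCT116 controls, 14.5, 12.8 and 11 with siTIP60-2 and 56.6, 49.9 and 52 with siTIP60-11, a difference between the siRNAs of -2.08 (SE 0.101, adjusted p = 9.72e-12). In SW480 GINS1 stood at 46.9, 45 and 45.5 CPM in controls, 20, 22 and 21 with siTIP60-2 and 48.9, 56.4 and 44.2 with siTIP60-11, a difference of -1.25 (SE 0.0988). With siTIP60-2 every library was below every control in both lines, and with siTIP60-11 every library was above the controls in HCT116 and the groups overlapped in SW480. RPA1 went the other way: it was at 203, 200 and 214 CPM in HCT116 controls, 281, 292 and 287 with siTIP60-2 and 151, 151 and 154 with siTIP60-11, and at 97.2, 101 and 115 CPM in controls, 154, 156 and 161 with siTIP60-2 and 85.5, 83 and 94.2 with siTIP60-11 in SW480. In both lines the 3 groups were fully separate, with the control in the middle. TIMELESS, the partner of TIPIN, was at 95.9, 84.5 and 104 CPM in HCT116 controls, 137, 135 and 137 with siTIP60-2 and 90.8, 86.4 and 86 with siTIP60-11. CLSPN in SW480 was at 10.8, 11.1 and 9.75 CPM in controls, 25.9, 25.2 and 23.2 with siTIP60-2 and 8.43, 11.5 and 7.78 with siTIP60-11, a difference of 1.42 (SE 0.126, adjusted p = 4.42e-10). With siTIP60-2 it stood at 236% of control in SW480 and at 119% in HCT116. GINS3 in SW480 was at 10.2, 10.3 and 11 CPM in controls, 17.5, 14.1 and 15.5 with siTIP60-2 and 6.99, 8.52 and 9.3 with siTIP60-11, above control with the first siRNA and below it with the second.

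Both targets share the control libraries, so the depleted cells were also compared directly. This test compares the mean of both BRD8 siRNAs with the mean of both TIP60 siRNAs and, unlike the calls against control, does not require the siRNAs to agree. In HCT116, 40 of 41 fork genes were lower in BRD8-depleted than in TIP60-depleted cells and 0 higher, against 31.7% and 30% of all genes, with a median difference of -0.70. The gene not called was POLD4. GINS1 was counted as lower although its siTIP60-2 libraries, given above, lay below every BRD8 library, and RPA1 although its siTIP60-11 libraries did so as well. In SW480, 38 were lower and 0 higher, against 30.2% and 29.7%, with a median of -0.68; POLD2, POLD4 and RPA1 were not called. At an unadjusted p of 0.05 the counts were the same, and DESeq2 called 40 and 37 lower and 0 higher.

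CDC45 had the largest difference in HCT116, -1.28 (SE 0.0563, adjusted p = 6.44e-13): its TIP60 libraries were at 25.7, 26.4 and 25.6 CPM with siTIP60-2 and 25.1, 24 and 23.5 with siTIP60-11, in the range of the controls. MCM10 (-1.18) and POLA2 (-1.11) followed. In SW480 the largest were CLSPN (-1.40, SE 0.102), MCM10 (-1.31) and GINS2 (-1.28). MCM10 in SW480 was at 15.7, 16.1 and 18.8 CPM in controls, 12.7, 13 and 12.8 with siBRD8-6, 5.36, 6.00 and 7.17 with siBRD8-36, 32.6, 26 and 28.1 with siTIP60-2 and 17, 16.5 and 15.7 with siTIP60-11. GINS2 in SW480 was at 28.1, 27.9 and 24.2 CPM with siBRD8-6, 17.8, 20.8 and 16.4 with siBRD8-36, 60.3, 54.8 and 58.2 with siTIP60-2 and 49.4, 46.3 and 50.1 with siTIP60-11. For both genes every BRD8 library lay below every TIP60 library.

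**Figure D4:**
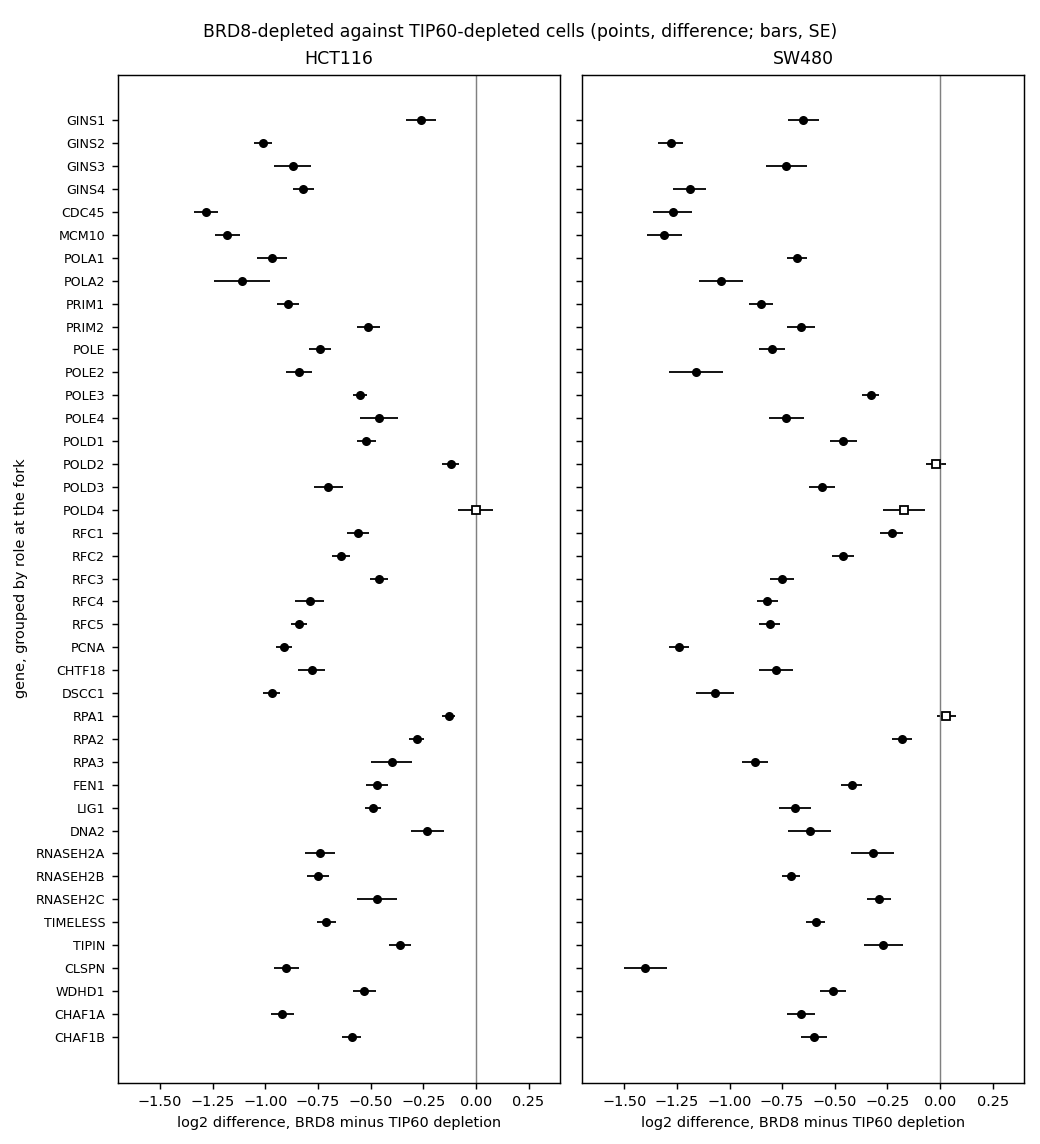
Log2 difference between BRD8-depleted and TIP60-depleted cells for the 41 fork genes in each line (points, mean of both siRNAs of each target, n = 6 against 6 libraries; bars, SE; open squares, not called). All points but POLD4 in HCT116, and all but POLD2, POLD4 and RPA1 in SW480, lie to the left of 0 and are called.

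The response to BRD8 depletion differed between the lines for 14 fork genes, which over both directions together is about as often as for all genes tested. The mean change was lower in HCT116 than in SW480 for 12 and higher for 2, PCNA and POLE3, against 21.9% and 12.5% of all 17411 genes, in a test of the difference itself. The split depended on the scaling: with RLE size factors 8 fork genes were lower and 5 higher, among 3094 and 2879 of all genes, where TMM gave 3812 and 2174. Without SW480 control replicate 3 the counts were 6 and 6, and without SW480 siBRD8-36 replicate 2 the higher genes numbered 4. The difference of POLE3, 0.20 on counts, was -0.07 on log2(TPM + 1). POLA1, whose levels in every library are given above, had the largest difference, -0.75 (SE 0.107, adjusted p = 1.06e-06). RNASEH2A followed with -0.68 (SE 0.156). CHAF1B, at 48.3, 44.9 and 49 CPM in HCT116 controls, 38, 41.6 and 40.7 with siBRD8-6 and 24.9, 21.4 and 22.1 with siBRD8-36, against 25.6, 24.9 and 24.4 CPM in controls, 24.6, 26.7 and 26.4 with siBRD8-6 and 16.8, 15.1 and 17.7 with siBRD8-36 in SW480, differed by -0.48. PCNA differed by 0.47 (SE 0.0741, adjusted p = 5.41e-06) in the other direction. None of the 6 helicase cofactors differed between the lines by this test.

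The response to TIP60 depletion was lower in HCT116 for 11 fork genes and higher for 3 (POLE3, TIPIN and RFC5), against 18.0% and 13.1% of all genes. CLSPN had the largest difference, -0.60 (SE 0.14, adjusted p = 0.00106), followed by LIG1 (-0.47) and POLE (-0.47). POLE3 differed by 0.45 (SE 0.0598, adjusted p = 3.68e-07), with its SW480 libraries at 158, 175 and 164 CPM in controls, 178, 173 and 186 with siTIP60-2 and 160, 157 and 153 with siTIP60-11. There the depleted libraries overlapped the controls, unlike in HCT116. LIG1 was at 87, 81.5 and 90.4 CPM in controls, 84.8, 91.8 and 83.1 with siTIP60-2 and 64.2, 65.9 and 64.2 with siTIP60-11 in HCT116 and at 20.7, 27.4 and 23.1 CPM in controls, 30.5, 31.9 and 28.1 with siTIP60-2 and 26, 23.7 and 25.1 with siTIP60-11 in SW480. Without SW480 control replicate 2 the counts were 7 lower and 1 higher, and without SW480 siTIP60-11 replicate 1 the lower genes numbered 7.

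Genes from lists of origin licensing, the MCM helicase and origin firing fell too. Of 16 genes of origin licensing and the MCM helicase, 12 fell in HCT116 and 11 in SW480 with BRD8 depletion, with 0 higher and medians of -0.92 and -0.73 against -0.02 and 0.00 over all genes. Over all genes 12.2% were lower in HCT116 and 14% in SW480. MCM2 (-1.93), MCM4 (-1.44) and ORC6 (-1.38) fell most in HCT116, and CDC6 (-1.75), the licensing factor, and ORC6 (-1.53) in SW480. Of 8 genes in the list named for origin firing, 4 fell in HCT116 and 6 in SW480. The list includes TRAIP, which is not itself an origin firing factor and fell by 0.96 and 1.01. With TIP60 depletion 1 licensing gene fell and 2 rose in HCT116, and 4 fell and 1 rose in SW480. For origin firing, 1 fell in HCT116, and 1 fell and 1 rose in SW480. Over all genes TIP60 depletion lowered 14.1% and raised 13.7% in HCT116, and lowered 12.1% and raised 11.5% in SW480, so the licensing and firing counts were near or below those shares except for the 4 that fell in SW480.

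Genes that supply deoxynucleotides changed as well. With BRD8 depletion 7 of 12 fell and 2 rose in HCT116 (median -0.74), against 12.2% lower and 12.2% higher over all genes, and 8 fell and 1 rose in SW480 (median -0.81), against 14% and 12.9%. DCK, a kinase that salvages deoxynucleosides, fell by 1.07 and 1.42, and CAD, of pyrimidine synthesis, rose by 0.23 and 0.43. With TIP60 depletion 4 of the 12 fell and 2 rose in HCT116, against 14.1% and 13.7% of all genes, and 2 fell and 1 rose in SW480, against 12.1% and 11.5%; DCK fell by 0.76 and 0.59. Among 29 other genes tied to forks, histone supply and the replication checkpoint, 11 fell in HCT116 and 10 in SW480 with BRD8 depletion, and with TIP60 depletion 10 rose and 3 fell in HCT116 and 7 rose and 1 fell in SW480, to be read against the same shares of all genes. EXO1, a nuclease, fell by 1.10 and 1.16 with BRD8 depletion, and ATRIP, the partner of the checkpoint kinase ATR, rose by 0.65 and 0.80 with TIP60 depletion.

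Markers of other cell cycle states moved too, and their part in the fork genes' changes was not tested. Of 26 genes of G2 and mitosis, which share TOP2A with the fork-associated list, 16 fell in HCT116 and 23 in SW480 with BRD8 depletion, with medians of -0.96 and -1.17, against 12.2% and 14% of all genes. With TIP60 depletion 14 fell in HCT116 and 11 fell and 2 rose in SW480, with medians of -0.32 and -0.20, against 14.1% lower in HCT116 and 12.1% lower and 11.5% higher in SW480 over all genes. CDK1, the mitotic kinase, fell by 1.48 and 1.90 with BRD8 depletion and by 0.63 and 0.65 with TIP60 depletion. Of 6 genes linked to arrest or its control (CDKN1A, CDKN1B, BTG2, CCND1, GADD45A and MDM2), 3 rose and 1 fell in HCT116 with BRD8 depletion. In SW480, 1 rose and 2 fell. The list mixes roles, as CCND1 is a cyclin and MDM2 an inhibitor of the tumour suppressor p53. CDKN1A, the inhibitor of cyclin-dependent kinases, rose by 1.21 with BRD8 depletion and by 1.41 with TIP60 depletion in HCT116, and its changes in SW480 were -0.16 and -0.03, not called. With TIP60 depletion 2 of the 6 rose and 1 fell in HCT116, and 1 rose and 3 fell in SW480. Over all genes 12.2% rose and 12.2% fell in HCT116 and 12.9% rose and 14% fell in SW480 with BRD8 depletion, and the TIP60 shares are those given above.

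The authors' tables also give each gene's mean transcript length, weighted over its isoforms. Many fork genes had at least 1 depleted group whose lengths did not overlap those of the controls, some of them by little: POLE3 in HCT116 was separate with all 4 siRNAs, at 2029 bases in controls (SD 25, n = 3) and 2093 to 2113 in the means of the depleted groups. With 3 libraries on each side such separation can arise by chance. The share of all genes that showed it was not computed, so it is not read as a trait of fork genes. The largest shift in proportion was that of POLE in SW480, with a mean length of 3500 bases in controls (SD 180, n = 3), 4982 with siBRD8-6 (SD 599) and 4417 with siTIP60-2 (SD 535). MCM10 in HCT116 went from 2560 bases (SD 208) to 3100 with siBRD8-36 (SD 234), and GINS4 in SW480 from 1782 (SD 273) to 2469 with siTIP60-2 (SD 312). CDC45 in SW480 went the other way, from 1606 (SD 120) to 1369 with siBRD8-36 (SD 156). In each case no library of the group overlapped a control. The counts used above are not corrected for length, so a level of these genes on the TPM scale differs from that on the CPM scale.

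Several fork genes overlap a protein-coding gene in GENCODE release 29, among them GINS2 with GSE1, PRIM1 with NACA, RFC4 with EIF4A2, RFC5 with WSB2, RPA1 with SMYD4 and RPA3 with UMAD1. The strand setting of the counting is not given in the sources used here, so reads of such pairs may not be fully separated. On hg38 as annotated there, CDC45 lies on chromosome 22 (19479459 to 19520612, plus strand), GINS1 on chromosome 20 (25407727 to 25452628, plus strand), RFC4 on chromosome 3 (186789880 to 186807058, minus strand) and PCNA on chromosome 20 (5114953 to 5126626, minus strand).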

How the data were processed

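RNA from HCT116 and SW480 cells was sequenced in 30 libraries, with a strand-specific kit from 100 ng of total RNA and single reads of 60 bases, per the labels' protocols. The submitters' processing notes name Trimmomatic 0.33, STAR 2.7.3a, RSEM 1.3.3 and the build hg38; neither strand setting nor annotation release is given in the sources used here. Each deposited table, made by the authors, holds RSEM's expected counts, TPM values and transcript lengths per gene, per the file headers. The 41 genes were matched by symbol, and 58444 gene IDs were found in GENCODE release 29, which gave the coordinates.

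Expected counts were rounded to whole numbers. Genes were filtered with filterByExpr, scaled by TMM and tested with edgeR 4.0.16 (quasi-likelihood, R 4.3.3) over all genes, within a line on its 15 libraries and between lines on all 30. Calls for a target required the same sign with both siRNAs; the larger of both edgeR p-values, set to 1 where the signs differed, was adjusted by Benjamini-Hochberg and had to lie under 0.05. A printed change is the mean of both siRNAs and its SE comes from that contrast. Values by library are given for most genes picked by a rule. The rule took the called genes with the largest change by the weaker siRNA (up to 6 a direction). It also took the 3 largest called differences in each direction between siRNAs, targets and lines. From each role it took 1 or 2 genes with the largest change. Some of these genes, among them RNASEH2B, WDHD1 and CHTF18, are named without values by library. Alternatives were DESeq2 1.42.0, RLE scaling, no filter, a filter of 1 CPM in 3 libraries, limma 3.58.1 on log2(TPM + 1) or log2(TPM + 0.1), a replicate block, the compared groups alone, each siRNA alone and leaving out each library. The procedure was tested on simulated HCT116 counts in which both BRD8 siRNAs changed the same genes equally. That setting does not cover SW480, the tests between lines or siRNAs that disagree. The genes, lists and tests were chosen with earlier results of these data known.

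Depth was 13.42 to 18.6 M counts in HCT116 and 7.07 to 11.7 M in SW480, so genes of few counts, such as POLE2, were measured least precisely.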

Additional observations from a re-analysis of the deposited data

Results flagged for a closer look

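The change after depletion differed between the lines, in a test of the difference itself (edgeR's quasi-likelihood test on all 30 libraries, both siRNAs, Benjamini-Hochberg adjusted p under 0.05), for 14 of 41 fork genes with BRD8 depletion and 14 with TIP60 depletion. With BRD8 depletion 29.3% of fork genes were lower in HCT116 and 4.88% higher, against 21.9% and 12.5% of all 17411 genes. With TIP60 depletion these shares were 26.8% and 7.32%, against 18.0% and 13.1%. Over both directions together, fork genes differed about as often as all genes with either target. The median difference over all genes was -0.10 for BRD8 and -0.06 for TIP60. Each value is the log2 change in HCT116 minus that in SW480.

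For BRD8, the difference was -0.75 for POLA1, -0.68 for RNASEH2A, -0.48 for CHAF1B, -0.45 for POLE and -0.45 for RNASEH2C. It was -0.44 for CHAF1A, -0.40 for RFC1, -0.39 for RPA1, -0.36 for POLD3, -0.31 for LIG1, -0.26 for TIMELESS and -0.21 for RFC2. It was 0.20 for POLE3 and 0.47 for PCNA, the clamp.

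For TIP60, the difference was -0.60 for CLSPN, -0.47 for LIG1, -0.47 for POLE, -0.46 for CHAF1B, -0.44 for RPA3 and -0.43 for GINS4. It was -0.42 for POLA1, -0.37 for GINS2, -0.37 for MCM10, -0.26 for RFC3 and -0.20 for RPA1. It was 0.17 for RFC5, 0.38 for TIPIN and 0.45 for POLE3. POLE3 was higher in HCT116 in both comparisons. Both comparisons share the control libraries of each line, and the SW480 controls were the shallowest libraries. For BRD8, 5 of the 12 lower and 1 of the 2 higher calls held in every alternative run. For TIP60, 4 of the 11 lower and 1 of the 3 higher calls did so.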

How the results depend on the processing

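With BRD8 depletion, 14 of the 25 calls in HCT116 and 12 of the 26 in SW480 held in every alternative run, and 21 and 21 in every alternative on counts; for BRD8 against TIP60 depletion 37 of 40 and 36 of 38 held in every alternative. With TIP60 depletion 0 of the 5 lower and 2 of the 3 higher calls in HCT116, and 0 of 2 and 1 of 2 in SW480, held in every alternative. Where a value moved, the cause was not tested. On log2(TPM + 1) and on log2(TPM + 0.1) alike, limma called 16 (HCT116) and 12 (SW480) genes lower and 0 and 1 higher with BRD8, 1 and 0 lower with TIP60, 2 and 1 lower with siTIP60-2 than siTIP60-11, 1 higher in the BRD8 response and 1 higher in the TIP60 response of HCT116, and 7 lower in HCT116 controls. On TPM the POLE3 difference in BRD8 response was -0.07 with either pseudocount, and the control differences, negative on counts, were 0.11 and 0.12 for POLD3 and 0.03 with either pseudocount for PCNA. In SW480 log2(TPM + 1) moved the median of all genes to 0.23 (BRD8) and 0.18 (TIP60).

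By siRNA alone, for which the shares of all genes were 24.8% higher with siBRD8-6 and 28.8% with siBRD8-36 in HCT116, 28.3% with siBRD8-36 in SW480, and 23.4% to 27.7% in either direction with the TIP60 siRNAs, 2 (siBRD8-6) and 1 (siBRD8-36) genes were higher in HCT116 and 2 higher with siBRD8-36 in SW480; with siTIP60-2 8 were lower and 12 higher in HCT116 and 19 higher in SW480, and with siTIP60-11 14 lower and 6 higher in HCT116 and 15 lower and 5 higher in SW480. DESeq2 called 1 lower and 1 higher with TIP60 in SW480. Without the filter, 5 were lower with siBRD8-6 than siBRD8-36 in SW480. In the BRD8 response, RLE scaling gave 5 higher, the stricter filter 6, and the compared groups alone 7 lower and 6 higher. The compared groups alone gave 3 lower with TIP60 in HCT116, 4 higher in SW480 and 1 lower with siTIP60-2 than siTIP60-11 in SW480.

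The replicate numbers showed at most a weak pairing of libraries. Deviations from the group means in same-numbered libraries correlated at -0.05 to 0.18 in HCT116, with a median of 0.06 against -0.03 for other pairs. In SW480 they correlated at -0.17 to 0.2, with a median of 0 for both kinds of pair. A replicate block gave 25 genes lower with BRD8 in HCT116 and 25 in SW480, 1 lower with TIP60 in SW480 and 1 lower with siTIP60-2 than siTIP60-11 in SW480; no other count moved by over 1.5 times. Leaving out 1 library gave 21 to 27 (HCT116) and 23 to 28 (SW480) genes lower with BRD8, 2 to 4 and 1 to 2 lower and in SW480 1 to 2 higher with TIP60, 2 to 4 and 1 to 2 lower with siTIP60-2 than siTIP60-11, 3 to 7 lower with siBRD8-6 than siBRD8-36 in SW480, 6 to 13 lower and 2 to 6 higher in the BRD8 response, and 7 to 12 lower and 1 to 4 higher in the TIP60 response. POLE2, a gene of few counts, lost its HCT116 call with BRD8 in DESeq2, and the part of depth in this was not tested.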
